A study of Mus musculus with 12 samples.

Results

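The 10 genes described here, S100a8, S100a9, Ngp, Ltf, Camp, Mmp9, Retnlg, Csf3r, Fpr1 and Ly6g, encode products of the neutrophil, and they are 10 of the 46078 genes counted in the livers of 12 mice. They were chosen by name, as granule proteins, cytosolic proteins and surface receptors of this cell, at a time when their higher counts in the VSG group of these same data were known. Their fold changes and test results are therefore given as a description, and they are no independent evidence that neutrophil genes differ between the groups. All mice were male C57BL/6J, made obese on a high-fat diet and 21 weeks of age per the labels. The VSG group (4 mice) had vertical sleeve gastrectomy, an operation that removes the greater part of the stomach. The Sham-WM group (4 mice) had sham surgery and was then fed restricted amounts to hold it at the weight of the VSG mice, and the Sham-Ad lib group (4 mice) had sham surgery and unrestricted high-fat diet. Livers were taken in the third week after surgery, after several hours without food, so every value is 1 time point after an operation that the sham groups underwent only in part. The comparison of VSG with Sham-WM asks what differs at matched weight, and the comparisons with Sham-Ad lib ask what differs from obese mice.

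Libraries are called here by the animal number in their name. Their depth lay between 15122520 and 19384076 counts on genes, and the hepatocyte markers Alb, Ttr, Apoa1 and Cyp2e1 summed to between 74424 and 143292 CPM (counts per 1e+06 counts of the TMM-scaled library) over the 12. The group of a library came from the animal number that it shares with a sample's title. A second label field joins titles and libraries in another order, and under that grouping 0 of the 13054 genes tested passed an adjusted p of 0.05 in any comparison by edgeR's quasi-likelihood test. Library indices run in 1 block per group, so an effect of index or preparation order cannot be told apart from the group. Library 4F stood above the other 3 Sham-Ad lib libraries in 9 of the 9 members detected there, and libraries 1F and 8F stood above 11F and 18F within VSG, so results are also given without them. Mice were housed singly, and each gave 1 library.

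Neutrophils are made in the bone marrow in ordered stages. Promyelocytes fill the primary (azurophil) granules with myeloperoxidase and serine proteases, myelocytes then make the specific granule proteins, and later cells make gelatinase granules and the receptors with which the mature cell finds its targets. Transcripts of the early granule proteins are mostly shut down before a mature neutrophil leaves the marrow, whereas S100a8, S100a9 and the surface receptors stay expressed in the circulating cell. In whole-liver RNA, a change in the number of such cells and a change in RNA per cell cannot be told apart.

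S100a8 and S100a9, the 2 subunits of calprotectin, a calcium- and zinc-binding complex that fills the neutrophil cytosol, were the members with the highest mean level per kilobase of exon in VSG and Sham-WM. In Sham-Ad lib that order rested on library 4F, without which Fpr1 was highest at 0.978 ± 0.465 CPM per kilobase (SD, n = 3), before S100a9 at 0.887 ± 0.899 and S100a8 at 0.464 ± 0.461. S100a8 had 4349 counts in library 1F, 1885 in 8F, 517 in 11F and 138 in 18F of the VSG group, against 3, 77, 2 and 11 counts in Sham-Ad lib libraries 3F, 4F, 6F and 10F. In Sham-WM libraries 2F, 9F, 15F and 16F it had 15, 18, 12 and 8 counts. All VSG values were above all sham values, but within VSG library 1F was 33.1-fold above 18F, and 18F was 1.90-fold above 4F. S100a9 had 5451, 2579, 708 and 154 counts in the VSG libraries in the same order, 4, 94, 3 and 16 in Sham-Ad lib, and 21, 8, 9 and 9 in Sham-WM. The mean level of S100a9 was 129.9 ± 140.1 CPM in VSG (SD, n = 4), 1.61 ± 2.32 in Sham-Ad lib and 0.611 ± 0.308 in Sham-WM, so the SD exceeded the mean in VSG and in Sham-Ad lib. By edgeR, the log2 fold change of S100a9 was 6.31 ± 1.07 (SE) for VSG against Sham-Ad lib (adjusted p = 0.0410) and 7.71 ± 1.18 for VSG against Sham-WM (adjusted p = 0.00122). For S100a8 the same values were 6.27 ± 1.06 (adjusted p = 0.0410 by edgeR) and 7.17 ± 1.13 (adjusted p = 0.00135). The genes are neighbours on chromosome 3 of mm10, S100a8 at chr3:90668978-90670035 on the + strand and S100a9 at chr3:90692632-90695721 on the - strand, 22.6 kilobases apart.

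**Figure D1:**
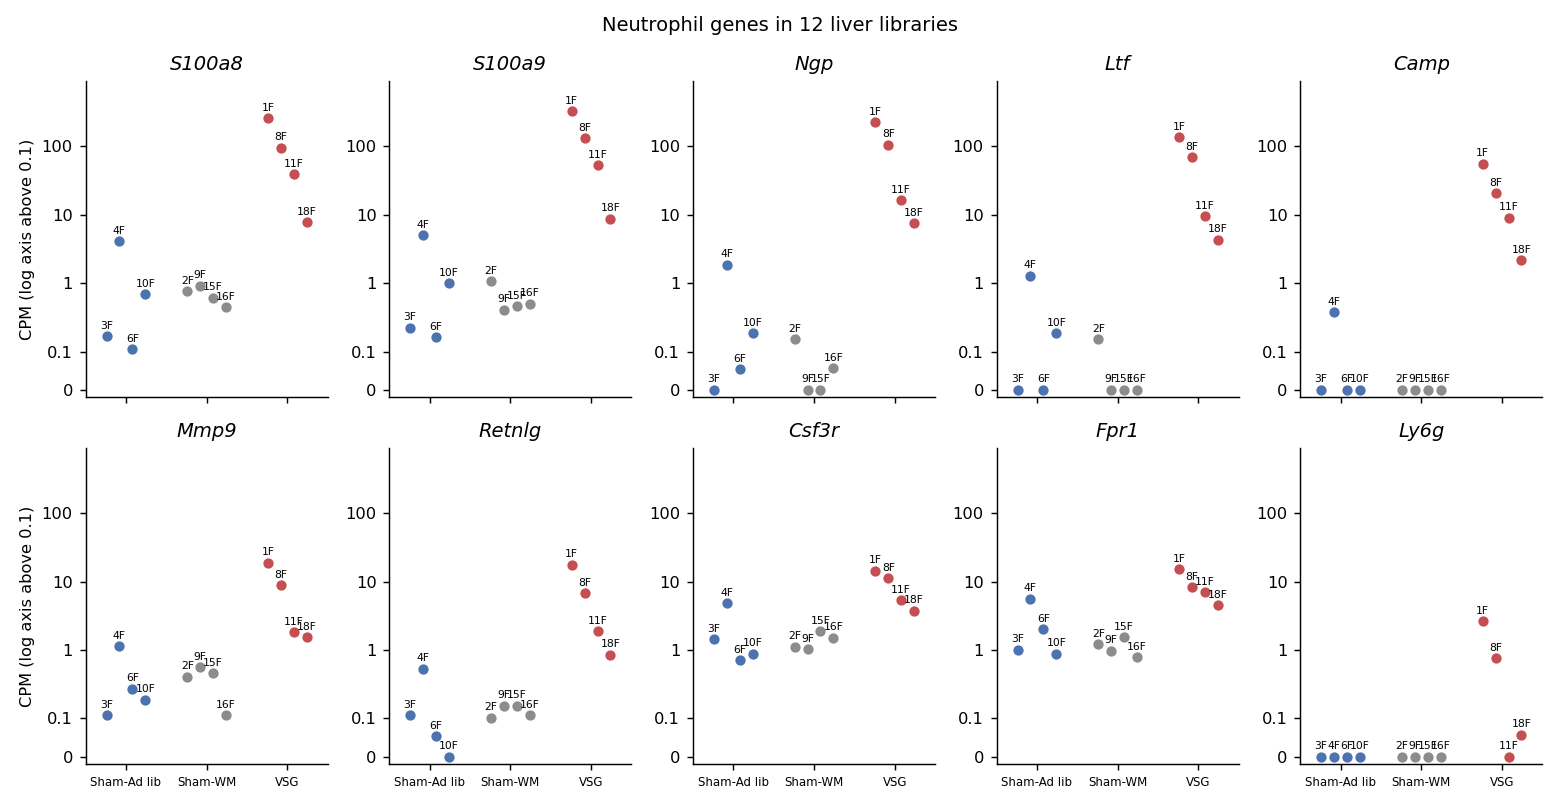
Level of each of the 10 genes in each of the 12 libraries, in CPM scaled by TMM, on an axis that is logarithmic above 0.1 and linear below it. Points are single libraries labelled by animal number and coloured by group, and in 9 of the 10 panels the VSG libraries run 1F, 8F, 11F and 18F from high to low, with 4F the highest Sham-Ad lib library wherever the gene was detected in that group.

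Ngp, Ltf and Camp are the specific granule genes. Ngp encodes neutrophilic granule protein, Ltf lactoferrin, an iron-binding protein, and Camp cathelicidin, the precursor of an antimicrobial peptide. Ngp had 3780, 2084, 216 and 133 counts in VSG libraries 1F, 8F, 11F and 18F, 0, 35, 1 and 3 in Sham-Ad lib libraries 3F, 4F, 6F and 10F, and 3, 0, 0 and 1 in Sham-WM libraries 2F, 9F, 15F and 16F. The VSG libraries lay above all 8 sham libraries, and 35 of the 39 Sham-Ad lib counts came from library 4F. Its level was 89.0 ± 102 CPM in VSG and 0.530 ± 0.902 CPM in Sham-Ad lib (SD, n = 4). The edgeR log2 fold change of Ngp was 7.34 ± 1.18 (SE) against Sham-Ad lib (adjusted p = 0.0410) and 10.55 ± 1.53 against Sham-WM (adjusted p = 0.000937).

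Ltf had 2278, 1373, 128 and 76 counts in the VSG libraries in the same order, 0, 24, 0 and 3 in Sham-Ad lib, and 3, 0, 0 and 0 in Sham-WM. The Sham-WM group thus held 3 counts in all, in library 2F, against 3855 in VSG, a ratio of 1464 at equal depth with an exact 95% interval from 501 to 7101 that covers counting error only. Camp had 936, 408, 121 and 38 counts in VSG, 7 counts in Sham-Ad lib library 4F, and 0 in each of the other 7 sham libraries. With a floor of 3 counts over the 4 Sham-WM libraries, Camp was at least 571-fold higher in VSG than in Sham-WM. Its edgeR log2 fold change against Sham-WM, 11.62 ± 1.75 (adjusted p = 0.00194), depends on the prior count because that group is at 0. Against Sham-Ad lib the edgeR values were 7.71 ± 1.25 for Camp (adjusted p = 0.0435) and 7.16 ± 1.19 for Ltf (adjusted p = 0.0410). The fold changes of Ngp, Ltf and Camp were above those of the other 6 tested members in both comparisons.

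The 3 specific granule genes share a chromosome as well as a granule. On mm10, Camp lies at chr9:109847379-109849617 on the - strand, Ngp at chr9:110419747-110423012 and Ltf at chr9:111019271-111042767, both on the + strand, so that the 3 fall within 1195 kilobases of chromosome 9. The 10 members in all lie on 7 chromosomes, and none overlaps another annotated gene. C/EBP factors and PU.1 are the transcription factors best known for driving granule genes, so the promoters were searched for their core letters. RefSeq promoters (GRCm38.p6, 250 bases before to 50 after the transcript start) were at hand for 9 of the 10 members, all but Mmp9. The letters TTNNGCAA of a C/EBP site, on either strand, were in the promoters of 5 of the 9 members (Ngp, Ltf, S100a9, Retnlg and Ly6g), and in 10.8% of all 32851 promoters. The letters GAGGAA of a PU.1 site, on either strand, were in those of 4 of the 9 (Ltf, S100a8, Csf3r and Ly6g), and in 28.3% of all promoters. A member was counted if any of its promoters matched, while the shares of all promoters are over single promoters, so the units differ. Ly6g has 2 windows, and only the first held the C/EBP letters. The Camp and Fpr1 windows held neither. The sequences printed are those of an early granule gene with 2 C/EBP matches (Ngp, chr9:110419558-110419857), one with both kinds (Ltf, chr9:111019042-111019341), a cytosolic gene (S100a8, chr3:90668821-90669120) and a receptor gene (Csf3r, chr4:126024409-126024708). All 4 are read on the + strand, the strand of the gene, and capitals mark the matches, of which GAGGAA on the opposite strand reads TTCCTC and TTNNGCAA reads TTGCNNAA.
Ngp: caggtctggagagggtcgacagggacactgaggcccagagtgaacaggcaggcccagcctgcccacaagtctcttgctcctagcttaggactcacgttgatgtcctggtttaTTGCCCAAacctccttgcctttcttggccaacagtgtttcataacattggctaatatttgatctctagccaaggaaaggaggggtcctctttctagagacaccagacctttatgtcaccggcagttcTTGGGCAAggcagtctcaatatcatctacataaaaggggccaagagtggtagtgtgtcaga
Ltf: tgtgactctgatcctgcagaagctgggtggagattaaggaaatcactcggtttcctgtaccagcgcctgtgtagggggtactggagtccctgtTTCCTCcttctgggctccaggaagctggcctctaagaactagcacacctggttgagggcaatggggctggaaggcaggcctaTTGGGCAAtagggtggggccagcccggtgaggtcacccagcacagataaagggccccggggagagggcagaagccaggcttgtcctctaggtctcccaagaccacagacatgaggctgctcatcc
S100a8: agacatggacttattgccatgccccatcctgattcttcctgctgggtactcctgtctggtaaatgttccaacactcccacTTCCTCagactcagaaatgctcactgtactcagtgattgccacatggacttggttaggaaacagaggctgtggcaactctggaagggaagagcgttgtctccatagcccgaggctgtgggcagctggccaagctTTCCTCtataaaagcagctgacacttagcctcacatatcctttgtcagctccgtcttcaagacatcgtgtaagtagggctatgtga
Csf3r: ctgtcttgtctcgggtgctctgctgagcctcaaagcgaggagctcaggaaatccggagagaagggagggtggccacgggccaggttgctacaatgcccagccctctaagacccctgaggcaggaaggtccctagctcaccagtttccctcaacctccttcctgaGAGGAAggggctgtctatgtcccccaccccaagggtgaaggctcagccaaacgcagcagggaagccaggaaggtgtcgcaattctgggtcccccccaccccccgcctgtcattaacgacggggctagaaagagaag
In Ngp the first bases of the matches lie 138 and 11 bases before the start, and in Ltf the PU.1 letters begin 157 and the C/EBP letters 75 bases before it. The PU.1 letters begin 170 and 36 bases before the start of S100a8 and 86 bases before that of Csf3r. A match is a run of letters and was not tested as a binding site.

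Mmp9 and Retnlg belong to the late, near-mature stage. Mmp9 encodes gelatinase B, the enzyme of the gelatinase granule that cuts denatured collagen, and lies at chr2:164940780-164955850. It had 313, 173, 24 and 27 counts in VSG libraries 1F, 8F, 11F and 18F, 2, 21, 5 and 3 in Sham-Ad lib and 8, 11, 9 and 2 in Sham-WM. The lowest VSG level, 1.54 CPM in 18F, was above the 1.13 CPM of 4F, the highest sham level. Retnlg encodes a secreted resistin-like protein made by mature neutrophils and lies at chr16:48872621-48874496. It had 294, 133, 25 and 15 counts in VSG, 2, 10, 1 and 0 in Sham-Ad lib and 2, 3, 3 and 2 in Sham-WM. The edgeR log2 fold change against Sham-Ad lib was 4.14 ± 0.85 for Mmp9 (adjusted p = 0.0469) and 5.17 ± 0.97 for Retnlg (adjusted p = 0.0442). Against Sham-WM it was 4.29 ± 0.86 for Mmp9 (adjusted p = 0.00404, edgeR) and 5.63 ± 1.00 for Retnlg (adjusted p = 0.00235).

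Csf3r and Fpr1, the tested surface genes, differed least. Csf3r is the receptor for granulocyte colony-stimulating factor, the hormone that drives neutrophil production, and Fpr1 is the receptor with which neutrophils sense formylated bacterial peptides. Both are also found on monocytes. Csf3r had 242, 221, 71 and 66 counts in the VSG libraries, 26, 90, 13 and 14 in Sham-Ad lib and 22, 20, 37 and 27 in Sham-WM. VSG library 18F, at 3.75 CPM, was below Sham-Ad lib library 4F, at 4.83 CPM, so these groups overlapped, while all VSG libraries were above all Sham-WM libraries. Fpr1 was at 15.2, 8.32, 7.01 and 4.55 CPM in the VSG libraries, 1.00, 5.63, 2.00 and 0.878 in Sham-Ad lib and 1.22, 0.973, 1.53 and 0.788 in Sham-WM, and it overlapped in the same way, 18F being below 4F. Against Sham-Ad lib neither passed the threshold of 0.05, with log2 fold changes of 2.14 ± 0.56 for Csf3r (adjusted p = 0.0655, edgeR) and 1.87 ± 0.52 for Fpr1 (adjusted p = 0.0705). Against Sham-WM the values were 2.65 ± 0.57 for Csf3r (adjusted p = 0.00609, edgeR) and 2.95 ± 0.55 for Fpr1 (adjusted p = 0.00288). Csf3r lies at chr4:126024550-126044440 and Fpr1 at chr17:17876471-17883940.

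Ly6g, the surface protein recognised by the antibodies most used to count mouse neutrophils, was the rarest member. It had 44 counts in VSG library 1F, 15 in 8F, 0 in 11F and 1 in 18F, and 0 in all 8 sham libraries. It was the 1 member that the filter on low counts left out, so the fit covers 9 of the 10. With a floor of 3 counts over 4 libraries, its VSG level was at least 21.1-fold above Sham-Ad lib and at least 22.8-fold above Sham-WM. An exact two-sided permutation test on log2 CPM gave p = 0.143 in both comparisons, with 3 of 4 VSG libraries above 0. Without the filter edgeR called Ly6g higher in both, with adjusted p = 0.0464 against Sham-Ad lib and 0.0127 against Sham-WM, where its fitted fold change depends on the prior count. Ly6g (chr15:75155240-75159126) belongs to a family of closely similar genes, so how its reads were assigned is uncertain.

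For VSG against Sham-Ad lib, 7 of the 9 tested members were called higher (S100a8, S100a9, Ngp, Ltf, Camp, Mmp9 and Retnlg) and 0 lower, where 0.467% of the 13054 genes tested were called higher. The same 7 were those whose VSG libraries all lay above all Sham-Ad lib libraries, as did 4.87% of genes tested. Several of the 7, among them Ngp, Ltf, Camp and Retnlg, passed the filter mainly through VSG, so both counts are in part fixed by it. All 7 adjusted p-values lay close under the threshold, between 0.0410 and 0.0469. The calls were lost by all 7 when any 1 of libraries 3F, 6F, 10F, 2F, 9F, 15F, 16F or 1F was left out, and when the 2 groups were fitted alone (adjusted p from 0.120 to 0.162 over the 9, edgeR), where 0 genes of any kind passed. With any 1 of those libraries left out, 0 to 3 of all genes tested passed, and 0 were higher. The 7 calls were kept without 8F or 11F, and all 9 members passed without 4F (adjusted p from 0.00519 to 0.0228, edgeR), without 18F, and by DESeq2. Of all genes tested, 98 passed in the fit as reported, 227 without 8F and 69 without 11F. The count was 903 without 4F, 1089 without 18F and 1202 by DESeq2. Leaving out 1F and 8F together gave 0 member calls, with log2 fold changes from 1.15 to 5.68 (adjusted p from 0.129 to 0.313, edgeR), and leaving out 4F as well gave 9 member calls (adjusted p from 0.00914 to 0.0362). Of all genes tested, 0 and 202 passed in these 2 fits. Over all alternatives grouped by title, the adjusted p ran from 1.78e-06 to 0.155 for S100a8 and from 0.000838 to 0.466 for Csf3r.

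For VSG against Sham-WM, all 9 tested members were called higher, where 15.0% of genes tested were. In each of the 9 all VSG libraries lay above all Sham-WM libraries, as did 14.3% of genes tested. Several members, among them Ngp, Ltf, Camp and Retnlg, passed the filter mainly through VSG. Both counts are therefore in part fixed by the filter, and the shares beside them are for scale. All 9 calls held when any 1 of the 12 libraries was left out. Without 1F and 8F, 7 of the 9 remained called, and Mmp9 (log2 fold change 2.05, adjusted p = 0.0700, edgeR) and Csf3r (1.67, adjusted p = 0.0809) did not. With 2 RUVs factors, an estimate of unwanted variation from replicates, 5 of the 9 remained: S100a8, S100a9, Ngp, Ltf and Camp. Over all alternatives grouped by title, the adjusted p ran from 1.14e-05 to 0.249 for Mmp9 and from 2.4e-05 to 0.263 for Csf3r.

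For Sham-WM against Sham-Ad lib, 0 of the 9 tested members were called by edgeR, and 0 had an unadjusted p under 0.05, where 3.53% of genes tested were called higher and 3.45% lower. DESeq2 also called 0. The ranges of the groups overlapped for all 10 members, while they did not overlap for 17.6% of genes tested in one direction or the other. Several members were near the floor in both sham groups and passed the filter mainly through VSG. Counts in Sham-Ad lib and Sham-WM were 39 and 4 for Ngp, 27 and 3 for Ltf, 7 and 0 for Camp, 13 and 10 for Retnlg, and 31 and 30 for Mmp9. Ly6g was at 0 in both. At such counts a call or a gap could hardly arise, so these values do not show that the sham groups were alike. The fitted log2 fold changes lay between -3.91 and -0.15, but their sign rested on library 4F for 5 of the 9. Without it S100a8 was at 1.15, Retnlg at 1.10, Mmp9 at 1.00, S100a9 at 0.46 and Csf3r at 0.45, and Mmp9 also turned to 0.14 without 16F. All 3 comparisons share groups of libraries, so their values are set side by side and not counted as separate evidence.

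**Figure D2:**
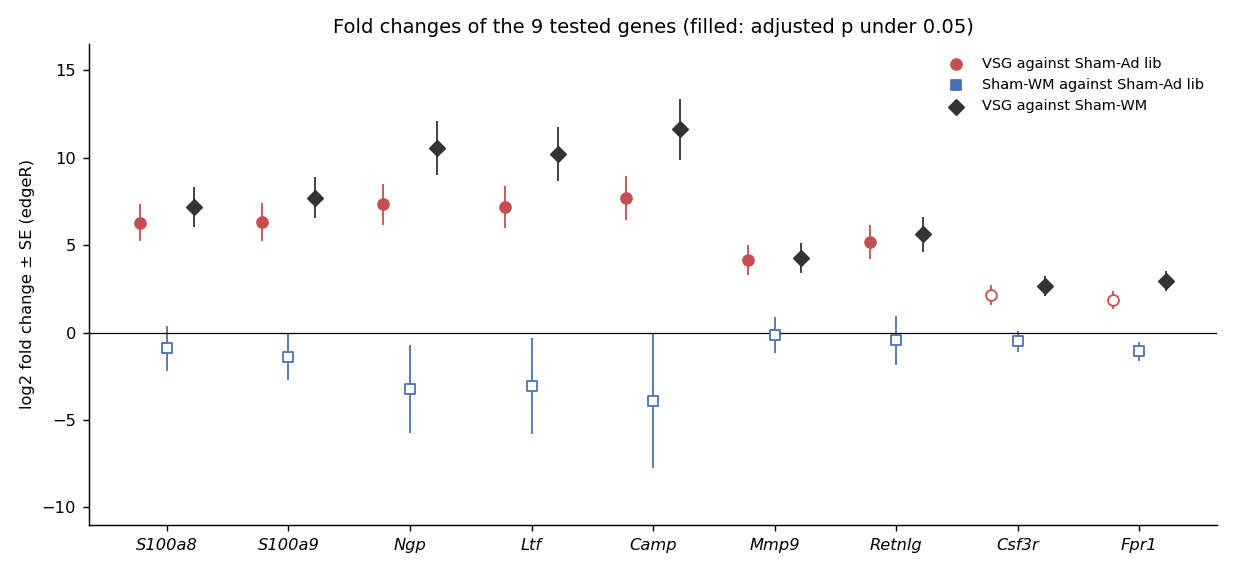
Log2 fold change with its standard error from edgeR for each of the 9 tested genes (x axis) in each comparison (colour and marker), with filled markers where the adjusted p was under 0.05. For VSG against Sham-WM all 9 markers are filled, for VSG against Sham-Ad lib those of Csf3r and Fpr1 are open, and for Sham-WM against Sham-Ad lib all 9 are open.

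**Figure D3:**
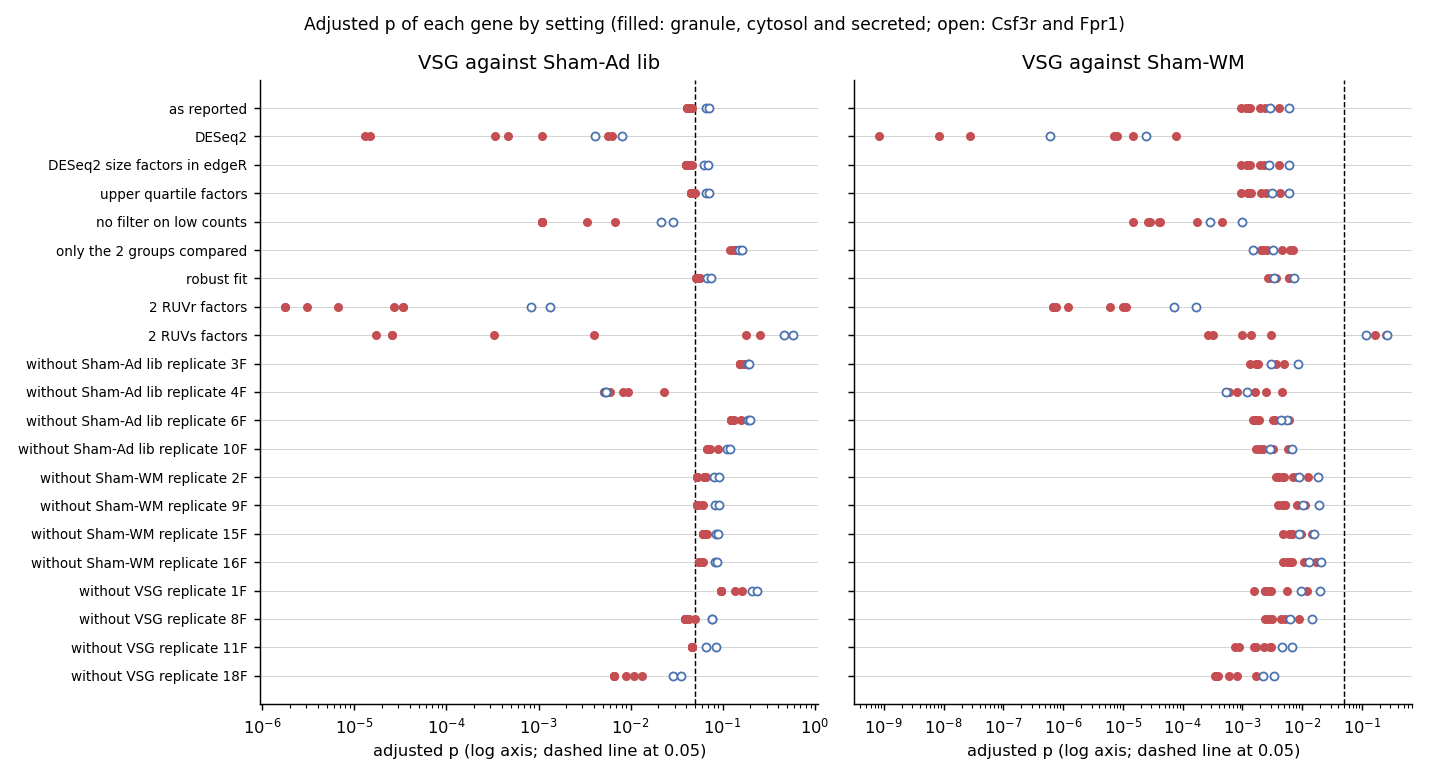
Adjusted p (x axis, log scale, dashed line at 0.05) of each tested gene under the fit as reported and 20 alternatives (y axis: tools, scalings, filter, factors and single libraries left out), for VSG against Sham-Ad lib (left) and VSG against Sham-WM (right). Filled points are granule, cytosolic and secreted genes and open points are Csf3r and Fpr1, and the points of the left panel sit on both sides of the line as single libraries are left out, while in the right panel the points past the line are those of 4 genes with 2 RUVs factors. The other label field, the stricter filter and the settings without 1F and 8F are not drawn.

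The specific granule and cytosolic genes differed more than the surface genes Csf3r and Fpr1, but the fitted values did not follow the order of maturation throughout. Against Sham-Ad lib the edgeR log2 fold change was 5.17 ± 0.97 (SE) for Retnlg and 4.14 ± 0.85 for Mmp9 of the late stage. For the earliest stage it was 5.65 ± 1.15 for Mpo, 5.26 ± 1.00 for Elane and 2.60 ± 0.91 for Prtn3, whose reads may include those of another gene. Against Sham-WM it was 10.63 ± 1.79 for Mpo, which had 1 count there, and 10.55 ± 1.53 for Ngp. Elane was at 6.88 ± 1.15, Prtn3 at 6.86 ± 1.25, Retnlg at 5.63 ± 1.00 and Mmp9 at 4.29 ± 0.86. The SEs of several of these values overlap, and the order was not tested. Monocytes also express Csf3r and Fpr1, so the ratios to surface counts need not compare stages within neutrophils. Specific granule counts (Ngp, Ltf and Camp) stood to surface counts (Csf3r, Fpr1 and Ly6g) in a ratio of 12.95 in VSG library 1F, 9.69 in 8F, 2.84 in 11F and 1.68 in 18F. In Sham-Ad lib the ratio was 0 in 3F, 0.338 in 4F, 0.02 in 6F and 0.214 in 10F, and in Sham-WM it was 0.130 in 2F, 0 in 9F, 0 in 15F and 0.0244 in 16F. In the sham livers the surface genes thus outnumbered the specific granule genes in all 8 libraries, and in the VSG livers the order was turned in all 4. The ratio of S100a8 and S100a9 to surface counts ran from 1.99 to 18.1 in VSG, from 0.1 to 0.964 in Sham-Ad lib and from 0.313 to 0.783 in Sham-WM. The specific granule genes against S100a8 and S100a9 gave 0.714, 0.866, 0.380 and 0.846 in the VSG libraries, while over all 4 libraries the ratio was 0.348 in Sham-Ad lib (73 to 210 counts) and 0.07 in Sham-WM (7 to 100 counts). In library 4F it was 0.386, inside the range of the VSG libraries. The other 3 Sham-Ad lib libraries held between 0 and 6 specific granule counts each, too few for a ratio to be read. These ratios were not tested, since the members were chosen with their levels known.

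**Figure D4:**
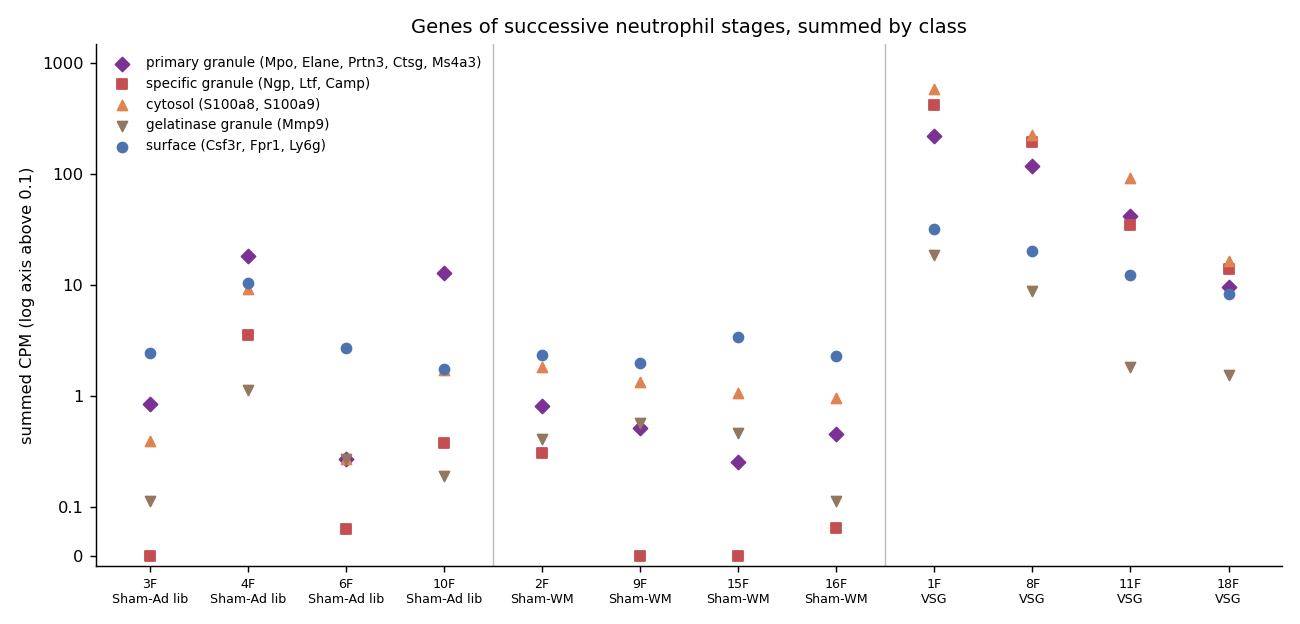
Summed CPM (y axis, logarithmic above 0.1) of the genes of each neutrophil class in each library (x axis, grouped by treatment). In the VSG libraries the cytosolic, specific and primary granule sums are above the surface sum, while in the Sham-WM libraries the surface sum is the highest of the 5 classes.

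The levels per kilobase of exon put the members in 1 order within VSG. S100a9 came first with 249 ± 268 CPM per kilobase (SD, n = 4), then S100a8 with 145 ± 162, Ngp with 72.8 ± 83.1, Camp with 29.0 ± 31.5 and Ltf with 16.0 ± 17.9. After these came Retnlg with 11.4 ± 12.9, Fpr1 with 6.62 ± 3.44, Csf3r with 2.41 ± 1.39, Mmp9 with 2.18 ± 2.28 and Ly6g with 0.916 ± 1.30. From S100a9 down to Ltf each gene was above the next in all 4 VSG libraries, so the order held within each library although the SDs overlap widely. Ltf and Retnlg changed places in 2 of the 4, Retnlg and Fpr1 in 2 of the 4, and Csf3r and Mmp9 in 1. In Sham-WM the order was S100a9 at 1.17 ± 0.59, S100a8 at 0.990 ± 0.291, Fpr1 at 0.852 ± 0.243 and Csf3r at 0.385 ± 0.110, with Ngp, Ltf and Camp after Retnlg and Mmp9. S100a9 was above S100a8 in 2 of the 4 Sham-WM libraries, so these neighbours did not differ beyond their spread there.

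White-cell RNA as a whole was also higher on average in VSG than in the sham groups, but by less than S100a8 and Ngp. The leukocyte markers Ptprc, Coro1a, Laptm5 and Cd52 summed to between 64.6 and 179.9 CPM in VSG, 23.8 to 74.9 in Sham-Ad lib and 22.6 to 36.4 in Sham-WM. Of these markers 4 of the 4 were called higher in VSG against Sham-WM, where 15.0% of genes tested were. Per count of these 4 markers, S100a8 had 0.122 to 1.44 counts in VSG, 0.00377 to 0.0552 in Sham-Ad lib and 0.0187 to 0.0363 in Sham-WM, with no overlap. Ngp likewise had 0.117 to 1.26 in VSG, against at most 0.0251 and 0.0042. Csf3r behaved otherwise: it had 0.0581 to 0.0812 counts per marker count in VSG, 0.0245 to 0.0645 in Sham-Ad lib and 0.0308 to 0.0672 in Sham-WM, so the ranges overlapped with both. Fpr1, at 0.0599 to 0.0872 in VSG, overlapped with the 0.0296 to 0.0752 of Sham-Ad lib and not with the 0.0336 to 0.0467 of Sham-WM.

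Markers of other cells were higher in the same libraries. For scale, 15.0% of genes tested were called higher in VSG against Sham-WM and 0.467% in VSG against Sham-Ad lib. Of the 7 Kupffer cell markers 7 were called higher in VSG against Sham-WM, and their sum was 453 to 1293 CPM in VSG, 136 to 437 in Sham-Ad lib and 121 to 211 in Sham-WM. Of the 4 monocyte markers (Ly6c2, Ccr2, F13a1 and Plac8) 4 were called higher in that comparison, with sums of 13.5 to 87.3 CPM, 5.08 to 18.7 and 4.62 to 7.39. Red blood cell markers, which would mark blood left in the vessels, were called in 0 of 5 in that comparison by edgeR, also 0 at an unadjusted p under 0.05. Their log2 fold changes there ran from 0.23 to 1.17, with a median of 1.00. The sum of these markers ran from 141 to 727 CPM in VSG, 280 to 588 in Sham-Ad lib and 151 to 312 in Sham-WM. The lowest of all 12 was library 8F. Proliferation markers (Mki67, Top2a, Ccnb1 and Cdk1) summed to 33.3 CPM in 1F and 28.1 in 8F, against 6.48 in 11F, 5.52 in 18F and 2.11 to 8.85 in the sham libraries. The hepatocyte marker sums ran from 74424 to 118619 CPM in VSG, 96956 to 119050 in Sham-Ad lib and 115523 to 143292 in Sham-WM. Of these 4 markers Alb (albumin) was called lower in VSG against Sham-WM (-0.73 ± 0.22, adjusted p = 0.0294, edgeR), and 0 were called against Sham-Ad lib. Acute phase genes of the hepatocyte were called higher in VSG against Sham-WM in 8 of 8. Of the other lists, 2 of 2 tested platelet markers, 3 of 3 proliferation markers, 2 of 4 B cell, 1 of 2 T and NK cell and 1 of 4 lipid-associated macrophage markers were called higher in VSG against Sham-WM. Against Sham-Ad lib the calls were 1 of 4 leukocyte markers, 2 of 7 Kupffer cell markers and 0 of the tested members of every other list apart from the neutrophil markers. Eosinophil, mast cell, pancreas and adipocyte markers were too low to be tested, with sums of at most 1.25, 0.538, 1.25 and 0.151 CPM in any library, and Cpa1, Pnlip and Lep were at 0 in all 12. The part of these lists in the values of the members was not tested.

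**Figure D5:**
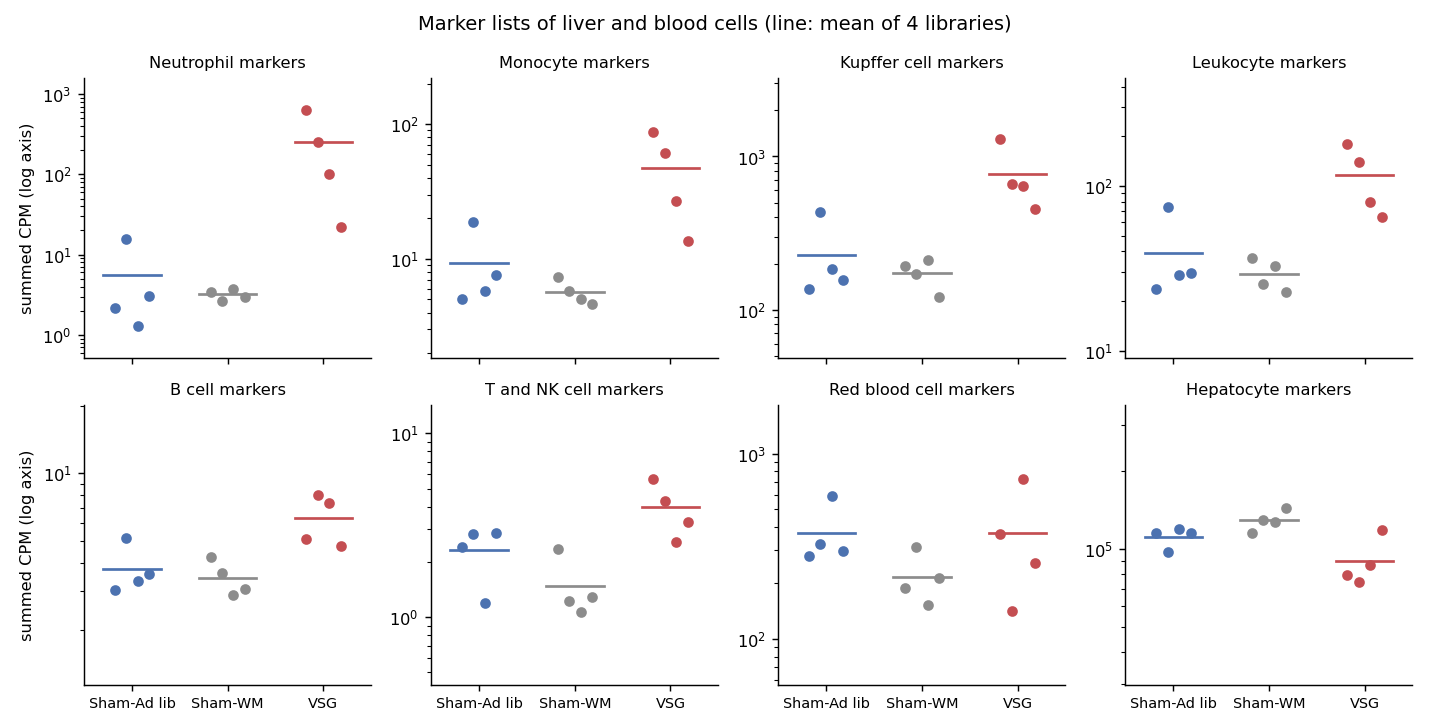
Summed CPM (y axis, log scale) of the marker genes of 8 cell types in each group (x axis), with a point per library and a line at the mean of 4 libraries. Neutrophil, monocyte, Kupffer cell, leukocyte, B cell, and T and NK cell sums are all higher in the VSG libraries than in every Sham-WM library, while red blood cell sums overlap between the 3 groups.

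Beyond the members, 66 other genes of neutrophil biology were examined in 7 lists, written with earlier results of these data known, and 40 of them passed the filter. Several, among them Mpo, Elane, Chil3, Pglyrp1 and Ifitm6, passed it almost only through their VSG counts. The calls and medians of the 40 are therefore in part fixed by the filter, and they are given as a description. For VSG against Sham-WM 34 of the 40 were called higher and 0 lower, where 15.0% of genes tested were called higher. Their median log2 fold change was 2.35, beside 0.03 over all genes tested. For VSG against Sham-Ad lib 7 of the 40 were called higher (Mpo, Elane, Chil3, Pglyrp1, Ifitm6, Ncf4 and Ppbp) and 0 lower, where 0.467% of genes tested were called higher. The median there was 1.87 beside 0.03. The count of 7 ran from 0 to 34 as single libraries were left out, 0 without 1F and 32 without 4F. For Sham-WM against Sham-Ad lib 1 of the 40 was called, lower, where 3.45% of genes tested were called lower. The median was -0.58 beside 0.00.

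The primary granule genes belong to the earliest stage. Mpo, myeloperoxidase, had 1234, 865, 87 and 46 counts in VSG libraries 1F, 8F, 11F and 18F, 0, 44, 0 and 1 in Sham-Ad lib, and 1, 0, 0 and 0 in Sham-WM. Its edgeR log2 fold change was 5.65 ± 1.15 against Sham-Ad lib (adjusted p = 0.0459), and against Sham-WM the ratio was 2543 with a 95% counting interval from 456 to 100472. Elane, neutrophil elastase, was at 14.7 ± 14.5 CPM in VSG, 0.366 ± 0.545 in Sham-Ad lib and 0.117 ± 0.134 in Sham-WM. It had 22 counts in Sham-Ad lib library 4F and 19 in VSG library 18F, so these groups overlapped. Ctsg (cathepsin G) and Ms4a3, a marker of granulocyte and monocyte progenitors, were left out by the filter with 499 and 184 counts in VSG, 8 and 1 in Sham-Ad lib and 2 and 0 in Sham-WM. Prtn3, proteinase 3, departed from the rest: it had 266 counts in 4F and 199 in 10F, against 98 in VSG library 18F, and was not called against Sham-Ad lib (2.60 ± 0.91, adjusted p = 0.114, edgeR). Library 10F held 3 Ngp counts, 1 Mpo count and 1 Elane count. Summed over 5 genes, primary granule counts stood to specific granule counts as 0.530, 0.604, 1.20 and 0.684 in the VSG libraries, a ratio added after the values were seen. Over all 4 libraries this ratio was 7.68 in Sham-Ad lib (561 to 73 counts) and 5.57 in Sham-WM (39 to 7 counts), above that of every VSG library. Prtn3 made up 480 of the 561 counts and 27 of the 39.

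Of 10 other specific and gelatinase granule genes 6 were tested, and 6 were called higher in VSG against Sham-WM and 2, Chil3 and Pglyrp1, against Sham-Ad lib. Chil3, a chitinase-like protein of myeloid cells with a near-identical paralog, was at 25.6 ± 27.0 CPM in VSG and 0.677 ± 1.09 in Sham-Ad lib, with an edgeR log2 fold change of 5.20 ± 1.03 (adjusted p = 0.0445). Pglyrp1, a peptidoglycan-binding granule protein, had 350 counts in VSG, 12 in Sham-Ad lib and 15 in Sham-WM. Cd177 and Mmp8, a surface marker and a collagenase of neutrophils, had 613 and 366 counts in VSG, 6 and 12 in Sham-Ad lib and 2 and 1 in Sham-WM, and were left out by the filter. Ifitm6, an interferon-induced-type membrane protein gene of myeloid cells, had 478 counts in VSG, 20 in Sham-Ad lib and 7 in Sham-WM. Hdc and Slpi, which make histamine and a protease inhibitor, were not called in any comparison. Lcn2 and Hp, which neutrophils store but hepatocytes also make in bulk, had log2 fold changes of 6.35 ± 1.25 (adjusted p = 0.00367, edgeR) and 2.28 ± 0.44 (adjusted p = 0.00317) against Sham-WM. Against Sham-Ad lib neither was called, Lcn2 at 2.79 ± 1.05 (adjusted p = 0.137, edgeR) and Hp at 1.10 ± 0.42 (adjusted p = 0.141).

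Of 17 further mature surface genes 11 were tested, and 9 were called higher against Sham-WM and 0 against Sham-Ad lib, although 10 of the 11 had an unadjusted p under 0.05 there. Cxcr2, the receptor that draws neutrophils along chemokines, had 221 counts in VSG, 38 in Sham-Ad lib and 30 in Sham-WM (3.01 ± 0.72 against Sham-WM, adjusted p = 0.00955, edgeR). Itgam, an integrin of myeloid cells, had a log2 fold change of 3.01 ± 0.70 against Sham-WM (adjusted p = 0.00860, edgeR). Ptafr and Ltb4r1, receptors for lipid mediators, did not pass, at 0.03 ± 0.40 (adjusted p = 0.967, edgeR) and 1.29 ± 0.50 (adjusted p = 0.0730) against Sham-WM. Ncf4, a cytosolic subunit of the neutrophil oxidase, was called higher against Sham-WM (3.20 ± 0.55, adjusted p = 0.00198, edgeR) and against Sham-Ad lib (2.54 ± 0.52, adjusted p = 0.0473).

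The signals that make and call neutrophils were mostly at or near the floor in liver RNA. Csf3, the ligand of Csf3r, had 1 count in all 12 libraries, Il17a had 0, and Il6 and Cxcl3 had 3 and 2 counts over the VSG libraries. Cxcl1, a chemokine for neutrophils, was highest in Sham-Ad lib library 4F with 1639 counts, against 492, 1154, 372 and 244 in the VSG libraries, 43 to 95 in the other Sham-Ad lib libraries and 38 to 68 in Sham-WM. It was called higher in VSG against Sham-WM (3.70 ± 1.00, adjusted p = 0.0175, edgeR) and not against Sham-Ad lib (0.37 ± 0.85, adjusted p = 0.818). Ppbp, a chemokine precursor stored in platelets, had 412 counts in VSG, 41 in Sham-Ad lib and 28 in Sham-WM, and was called higher in both VSG comparisons. The adhesion molecules Icam1, Vcam1 and Selp were called higher against Sham-WM and not against Sham-Ad lib, with log2 fold changes of 1.15, 0.97 and 0.78 against Sham-WM, and the difference between the comparisons was not tested. Among regulators of granulocyte production, 3 of the 5 tested were called higher in VSG against Sham-WM and 0 against Sham-Ad lib. The 3 were Spi1, which encodes PU.1 (2.35 ± 0.46, adjusted p = 0.00346, edgeR), Cebpe (1.66 ± 0.19, adjusted p = 0.000205) and Cebpd (1.64 ± 0.41, adjusted p = 0.0125). Cebpb (0.79 ± 0.28, adjusted p = 0.0560, edgeR) and Cebpa (0.15 ± 0.15, adjusted p = 0.481), both also expressed by hepatocytes, did not pass. Cebpe, the factor of the specific granule stage, was the 1 related gene called for Sham-WM against Sham-Ad lib, lower by edgeR (-1.26 ± 0.19, adjusted p = 0.00250). It had 140 to 163 counts in every Sham-Ad lib library and 51 to 92 in Sham-WM, where Ngp, Ltf and Camp were at 0 to 3 counts, and 142 to 211 in VSG, a range far narrower than that of the granule genes. Gfi1, a repressor needed for granulocyte formation, had 32 counts in VSG, 2 in Sham-Ad lib and 1 in Sham-WM.

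The genes whose pattern over the 12 libraries was most like the members were found by Pearson correlation of log2 CPM with the mean standardized level of the 9 tested members. The 10 closest non-members were Mpo (r = 0.994), Chil3 (0.986), Cd300a, Pirb, Fcer1g, Coro1a, Cd52, Cyth4, Elane and Ly6c2 (0.980). They are given as a description over 12 libraries in 3 groups, which share the group difference and the high libraries 1F, 8F and 4F. Pirb and Cd300a encode inhibitory receptors of myeloid cells and Fcer1g the signalling chain of activating ones. Pirb had 539, 352, 178 and 126 counts in the VSG libraries, 180 in 4F and 36 to 54 in the other 7.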

How the data were processed

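RNA was sequenced from 12 flash-frozen mouse livers (poly(A)-selected, strand-marking kit, paired-end). The authors aligned reads with TopHat2 2.1.1 to mm10 and counted them per gene with featureCounts, and the values deposited are raw counts per gene, not normalized. The gene annotation release and the strand setting of the counting are not given in the sources used here, so antisense neighbours may share counts. Ensembl identifiers were paired with symbols through a GENCODE annotation (45229 of 46078 matched), and 22987 genes were at 0 throughout. Total counts per library were between 15122520 and 19384076, and intervals and floors cover counting error only.

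Counts were scaled by TMM and tested with edgeR 4.0.16 (R 4.3.3) by the quasi-likelihood test in 1 fit over 12 libraries with 3 contrasts, after its filter on low counts (minimum count 10, minimum total 15), with Benjamini-Hochberg adjustment over 13054 genes and a threshold of 0.05. Ly6g, left out by the filter, was compared by an exact permutation test. The fits were tested on simulated data. The alternatives were DESeq2 1.42.0, other scalings, filters, a robust fit, 2 RUVr or RUVs factors, fits of 2 groups, another label field, and leaving out libraries. Leaving out 1F and 8F, with or without 4F, was chosen after seeing the data.

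The members and all lists were chosen with earlier results of these data known. The text names the members, related genes that passed the threshold or define their list, and the 10 genes most correlated with the members. Cd300a, Pirb and Fcer1g are named by that last rule, and untested related genes by their counts. Some related genes that enter the counts are not reported here by name.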

Additional observations from a re-analysis of the deposited data

Results flagged for a closer look

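In groups of 4 libraries, a value was singled out when the gap between 1 library and its nearest neighbour took up a larger share of the group's whole range than Dixon's 95% critical value for 4 values. It was computed for 42 groups of values, of which 11 passed. The critical value passes about 1 in 20 by chance only for normally distributed values. CPM of low counts are not such values, so the 11 cannot be set against that rate. The 42 are also not independent because they share libraries and genes.

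Library 4F stood apart as the highest Sham-Ad lib library in 9 of the 11. The share of the range was 0.855 for S100a8, 0.900 for Ngp, 0.854 for Ltf, 1 for Camp and 0.844 for Mmp9. For the summed classes it was 0.894 for the specific granule genes, 0.840 for S100a8 with S100a9, 0.844 for the gelatinase class, which is Mmp9 alone, and 0.891 for the surface genes. The Camp value rests on 7 counts. Without 4F, all 9 tested members passed the threshold for VSG against Sham-Ad lib. In 4F the leukocyte, Kupffer cell and monocyte marker sums, at 74.9, 437 and 18.7 CPM, were also the highest of the Sham-Ad lib group, and Cxcl1 was at 88.0 CPM. Their part in the member values was not tested.

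Library 2F stood apart as the highest Sham-WM library for S100a9, at 0.853 of the range with 21 counts against 8 to 9, and for Ltf, at 1 with 3 counts against 0.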

How the results depend on the processing

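No paired analysis was possible because the groups share no replicate numbers. The count of all genes called, in either direction, moved with the setting as well. For VSG against Sham-Ad lib it was 98 as reported, 1202 by DESeq2, 3034 with RUVr, 628 without the filter, 49 in the robust fit and 8 with RUVs. It was 0 with 10 counts in every library, with 2 groups, under the other label field and without 1F and 8F. For VSG against Sham-WM it was 3509 as reported and 528 with RUVs. For VSG against Sham-Ad lib the count of members called (7) was 0 with 10 counts required in every library (2 tested), 0 with only these 2 groups, 0 in the robust fit (adjusted p from 0.0508), 0 under the other label field and 0 without 1F and 8F, 9 by DESeq2, 9 with RUVr, 10 without the filter and 5 with RUVs, and 0 to 9 without single libraries. That of related genes (7) was 27 by DESeq2, 4 with upper quartile factors, 31 without the filter, 31 with RUVr, 2 with RUVs, 1 in the robust fit, 0 with 10 counts in every library, with 2 groups, under the other label field and without 1F and 8F, 16 without 4F, 1F and 8F, and 0 to 34 without single libraries. For Sham-WM against Sham-Ad lib RUVs called 1 member (from 0), and related genes (1) came to 5 by DESeq2, 4 without the filter, 2 with 2 groups, 8 with RUVr, 5 with RUVs, 0 under the other label field, 2 without 1F and 8F and 1 to 4 without single libraries. For VSG against Sham-WM the members (9) came to 2 of 2 tested with 10 counts in every library, 5 with RUVs, 0 under the other label field and 10 without the filter, and 9 without any single library. The related genes (34) came to 21, 7 and 0 under the first 3 of those settings, 47 without the filter, 19 without 1F and 8F, and 32 to 40 without single libraries.

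Signs turned in Sham-WM against Sham-Ad lib and in no other comparison. Of the turned values, S100a8 with RUVs was called (adjusted p = 0.0488). With RUVr the log2 fold change became 0.052 for S100a8, 0.39 for Mmp9 and 0.28 for Retnlg, and with RUVs 0.93 for S100a8, 0.46 for S100a9, 0.86 for Mmp9, 0.89 for Retnlg and 0.028 for Csf3r. Under the other label field, which mixes libraries of the 3 groups, it became 1.35 for S100a8, 1.33 for S100a9, 2.78 for Ngp, 2.95 for Ltf, 1.29 for Camp, 2.13 for Mmp9, 1.91 for Retnlg, 0.91 for Csf3r and 0.76 for Fpr1. Without 4F, 1F and 8F it became 1.12 for S100a8, 0.44 for S100a9, 0.98 for Mmp9, 1.08 for Retnlg and 0.43 for Csf3r. Leaving out single libraries gave -1.29 to 1.15 for S100a8, -1.82 to 0.46 for S100a9, -0.46 to 1.00 for Mmp9, -0.83 to 1.10 for Retnlg and -0.79 to 0.45 for Csf3r. The cause of these changes was not tested. Counts of 0 to 3 limit Ngp, Ltf, Camp and Ly6g in the Sham-WM libraries.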

Other observations

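Prg2, the major basic protein of eosinophil granules, had 0 counts in all 8 sham libraries and 7, 8, 7 and 6 counts in VSG libraries 1F, 8F, 11F and 18F. With a floor of 3 counts over 4 libraries it was at least 9.86-fold higher than in Sham-Ad lib and at least 10.6-fold higher than in Sham-WM. Unlike the neutrophil genes it was nearly level within VSG, and the eosinophil peroxidase gene Epx had 1 count, in 1F. It was chosen after its values were seen.

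Prtn3 had 11, 266, 4 and 199 counts in Sham-Ad lib libraries 3F, 4F, 6F and 10F, where Mpo had 0, 44, 0 and 1. Prtn3 overlaps Plppr3, annotated on the opposite strand, and how strand was used in the counting is not given in the sources used here, so reads of the 2 genes may not be separable.

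Per library, the 10 members together held 17941 counts in 1F, 9034 in 8F, 1903 in 11F and 728 in 18F, against 463 in 4F and 55 to 100 in the other 7 libraries, which is 0.108% of all counts in 1F.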
